A study of Mus musculus with 2 samples.

Results

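IRF4 peaks that hold an immunoglobulin octamer near their summit were 722 of the 27671 peaks of the mm9 list, or 2.61% (95% Wilson interval 2.43 to 2.80%). They were chosen by sequence alone: an exact match of ATGCAAAT on either strand, with all 8 bases no more than 50 bp away from the peak's summit. The octamer reads ATTTGCAT on the other strand. The peaks come from chromatin immunoprecipitation and sequencing (ChIP-seq) with an antibody against IRF4 in CH12.LX, an immortalized mouse B-cell lymphoma line of strain B10.H-2aH-4bp/Wts. The samples form 1 group of 2 biological replicates with no treatment, and the labels do not say whether the replicates were separate cultures. The mm9 list was made from both replicates together, so each comparison on it sets octamer peaks against the other 26949 peaks or against neighbouring sequence. Peaks of 1 list are not replicates of a condition, and the intervals cover counting error over peaks only.

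The octamer is the site of the POU-domain factors OCT1 (Pou2f1) and OCT2 (Pou2f2), and in B cells the coactivator OBF1 (Pou2af1) joins them on the DNA. It is best known from the promoters of immunoglobulin variable (V) genes, where it stands upstream of the start in one orientation in heavy chain genes and in the other in light chain genes. It is also part of histone H2B promoters. IRF4 is an interferon regulatory factor of B cells and plasma cells. It binds GAAA-containing sites, mostly together with the ETS factors PU.1 or SPIB on the ETS-IRF composite element (EICE) or with AP-1 factors on AP-1-IRF composite elements (AICE).

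The octamer peaks that lay just upstream of kappa V genes carry the classical arrangement, and 6 of them are printed below. Each is the mm9 reference sequence along the V gene, 5′ to 3′, with the octamer in capitals. The reference is not the sequence of CH12.LX itself.

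Igkv2-112 (chr6:68169843-68169902, + strand): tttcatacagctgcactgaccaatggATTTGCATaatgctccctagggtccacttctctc
Igkv11-125 (chr6:67863458-67863517, + strand): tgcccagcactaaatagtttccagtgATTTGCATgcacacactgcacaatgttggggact
Igkv14-111 (chr6:68206281-68206340, + strand): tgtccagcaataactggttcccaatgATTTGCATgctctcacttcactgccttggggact
Igkv14-130 (chr6:67740928-67740987, + strand): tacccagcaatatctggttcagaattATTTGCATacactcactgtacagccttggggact
Igkv19-93 (chr6:68686823-68686882, - strand): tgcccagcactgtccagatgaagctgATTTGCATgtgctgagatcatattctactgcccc
Igkv2-109 (chr6:68252300-68252359, + strand): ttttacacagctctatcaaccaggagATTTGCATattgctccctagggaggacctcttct

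All 6 read ATTTGCAT along their gene. The next set shows the 4 octamer peaks of highest signal, named by the nearest protein-coding gene and turned so that the octamer reads ATGCAAAT.

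Tcerg1l (chr7:145571055-145571114, + strand): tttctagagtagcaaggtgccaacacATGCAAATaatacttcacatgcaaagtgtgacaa
Ebf1 (chr11:44578703-44578762, - strand): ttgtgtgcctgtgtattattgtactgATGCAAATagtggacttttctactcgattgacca
9530008L14Rik (chr13:41998812-41998871, + strand): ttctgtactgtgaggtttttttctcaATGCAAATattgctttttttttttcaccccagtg
4931406P16Rik (chr7:35057627-35057686, - strand): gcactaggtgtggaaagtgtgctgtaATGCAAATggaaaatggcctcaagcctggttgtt

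The last set shows the octamers beside Cd79b, Blnk and Spib, which code for B-cell proteins, and beside the OCT1 gene, along the gene, and the only octamer peak of the heavy chain locus, on the forward strand. The Cd79b stretch overlaps a coding exon. The Blnk stretch overlaps an untranslated exon and is printed at a shorter length.

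Cd79b (chr11:106175890-106175949, - strand): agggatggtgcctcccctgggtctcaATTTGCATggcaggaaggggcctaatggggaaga
Blnk (chr19:41068823-41068852, - strand): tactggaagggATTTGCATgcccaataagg
Spib (chr7:51786828-51786887, - strand): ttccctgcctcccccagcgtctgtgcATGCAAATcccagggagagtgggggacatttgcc
Pou2f1 (chr1:167865306-167865365, - strand): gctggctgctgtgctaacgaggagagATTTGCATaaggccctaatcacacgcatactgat
Igh locus (chr12:114483092-114483151, + strand): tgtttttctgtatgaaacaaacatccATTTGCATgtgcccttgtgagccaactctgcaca

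Octamers gathered at the summits. The same window set 300 bp to the right held an octamer in 160 peaks (0.578%), so the summit windows held 4.51 times as many. This ratio describes how the peaks were chosen, so no p is given for it. The octamer read backwards, TAAACGTA, was in 8 summit windows and 16 neighbouring ones. That word holds C followed by G, which the octamer does not, and was rare in both places, so it is a weak comparison. Over all peaks, 171 octamers had their centre in the 20 bp around the summit, while the 20 bp bins at 200 bp and beyond held 33.9 on average and between 25 and 41 each. The count fell gradually with distance and was 143 in the bin from 30 to 50 bp to the left of the summit, just inside the limit of the rule, and 118 in the bin from 50 to 70 bp, just outside it. A window of 50 bp therefore leaves out peaks with an octamer a little farther away.

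**Figure D1:**
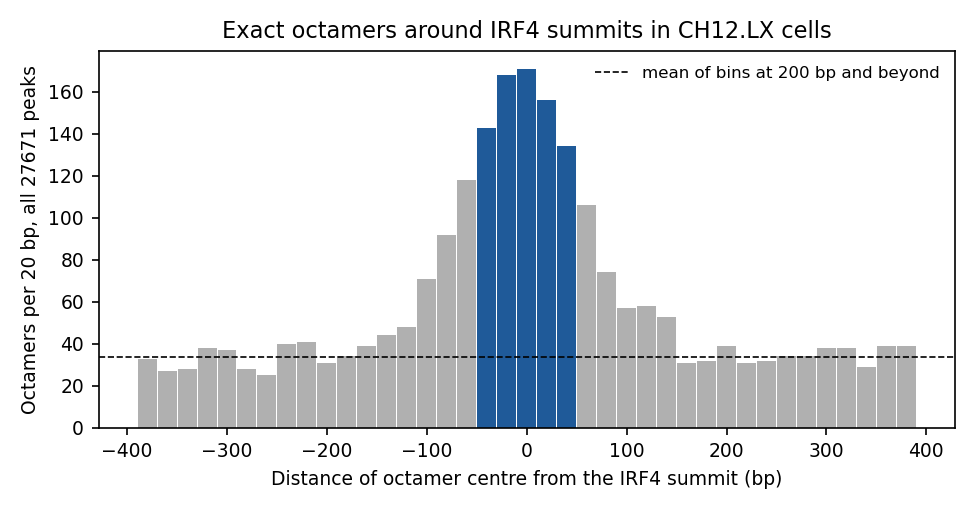
Number of exact octamers, on either strand, by the distance of their centre from the summit, in bins of 20 bp over all 27671 peaks of the mm9 list. Blue bins lie within 50 bp of the summit, and the dashed line is the mean of the bins at 200 bp and beyond (33.9). The bin at the summit holds 171.

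Of the 722 peaks, 709 held 1 octamer, 13 held 2 and none held 3 or more. In 9 of the 13 pairs both octamers lay on the same strand, and their spacing ran from 11 to 72 bp with a median of 28 bp. The strongest peak with 2 octamers lay in an intron of D8Ertd82e (signal 126), so none of the 12 strongest octamer peaks was a double one. The octamer centre lay at a median of 21.5 bp from the summit (quartiles 10.5 and 33.5 bp), and in 66 peaks (9.14%) the octamer covered the summit base. The rule limits this distance, so the median depends on the window. It was 10.5 bp with octamers allowed within 25 bp and 36.5 bp with octamers allowed within 100 bp. For comparison, the EICE closest to the summit lay at a median of 15.5 bp in the 2401 peaks that held one. Within 20 bp of the summit were 46.5% of the nearest octamers and 64.7% of the nearest EICEs.

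Few octamers of the genome were under a summit. Chromosomes 1 to 19 and X of mm9 hold 233885 octamers, of which 735 (0.314%) were in a summit window. Among the 2982 octamers within 1 kb of a protein-coding start the share was 1.51% (45 octamers, 1.13 to 2.01%), and among the rest it was 0.299% (0.277 to 0.322%). The bases beside the octamer were read at 5 positions on each side. The base just before ATGCAAAT was A in 28.3% of the 735 octamers (25.2 to 31.7%) and in 33.5% of 784 octamers lying 150 to 380 bp from a summit (30.3 to 36.9%), against 49.4% of all octamers of the genome. The third base after it was A in 30.3% (27.1 to 33.8%), 32.3% (29.1 to 35.6%) and 52.0%. Octamers in and beside peaks thus shared a difference from the genome as a whole at these positions. At others they differed from each other. The fourth base before the octamer was T in 21.1% of summit octamers (18.3 to 24.2%) and 31.3% of those beside (28.1 to 34.6%), and C in 24.5% (21.5 to 27.7%) and 17.6% (15.1 to 20.4%). In all, the intervals did not overlap for 6 of the 40 shares. The others were T at the fifth base before (lower at summits), G at the third base before (higher), and A (lower) and G (higher) at the fifth base after. All 6 were thus A or T lower, or C or G higher, at summits. The 40 comparisons were not adjusted for their number. Whether base composition in general differs between summits and the sequence beside them was not tested.

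Because the members were chosen for the exact 8 bases, words that differ from the octamer at 1 base are independent of the choice. Each of the 24 was counted in the summit windows of all peaks and in the windows 300 bp to the right, with an exact McNemar test and Benjamini-Hochberg adjustment over the 24. Of these, 10 passed an adjusted p of 0.05 (41.7%), 5 more frequent at the summit and 5 less. The changes are named by the octamer's base, its position from the 5′ end of ATGCAAAT and the new base. Words changed at the last base were all more frequent at summits. T8A was in 260 summit windows and 134 neighbouring ones (ratio 1.94, adjusted p of 4.61e-09), T8C in 197 and 99 (ratio 1.99, adjusted p of 1.02e-07), and T8G in 254 and 156 (ratio 1.63, adjusted p of 5.62e-06). G3T (195 against 151, adjusted p of 0.0496) and A7C (76 against 49, adjusted p of 0.0496) passed narrowly, and A7C did not pass with the neighbouring window to the left (ratio 1.23, adjusted p of 0.397).

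Other changes went the opposite way. A6T was in 55 summit windows and 133 neighbouring ones (ratio 0.414, adjusted p of 9.95e-08), G3A in 65 and 144 (ratio 0.451, adjusted p of 2.87e-07), and A6C in 82 and 167 (ratio 0.491, adjusted p of 3.69e-07). G3C (39 against 86, adjusted p of 0.000109) and A5C (30 against 66, adjusted p of 0.000917) were also less frequent at summits. The highest of the 24 summit to flank ratios, 1.99, stood below the 4.51 of the exact octamer.

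Octamer peaks were mostly far from promoters. The summit lay no more than 1 kb from a protein-coding start in 44 of 722 octamer peaks (6.09%, 4.57 to 8.08%) and in 4384 of 26949 other peaks (16.3%, 15.8 to 16.7%). The odds ratio was 0.334 (95% interval 0.246 to 0.454, logistic fit over all peaks, n = 27671, likelihood ratio p of 1.95e-16). The sequence on both sides of the octamer windows had a lower GC content (median 45.4% against 47.0%). With that GC content as a term the odds ratio was 0.571 (p of 0.000368), and with the starts of all annotated transcripts it was 0.518 (p of 2.75e-09).

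Introns held 327 octamer peaks (45.3%, 41.7 to 48.9%) against 39.2% of the other peaks, and 341 (47.2%, 43.6 to 50.9%) were intergenic against 42.1%. The classes used protein-coding genes only, so the octamer peaks just upstream of kappa V genes count as intergenic and not as promoter peaks. Coding exons and untranslated exons held 5 octamer peaks each (0.693%), against 1.17% and 1.31% of the other peaks. The median distance to the nearest protein-coding start was 24388 bp, against 16528 bp. Over 100 kb from any such start lay 17.3% of octamer peaks (14.7 to 20.2%) and 12.2% of the others. The share of peaks with an octamer varied between 1.68% on chromosome 18 and 3.86% on chromosome X, where only 13 of 337 peaks had one.

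**Figure D2:**
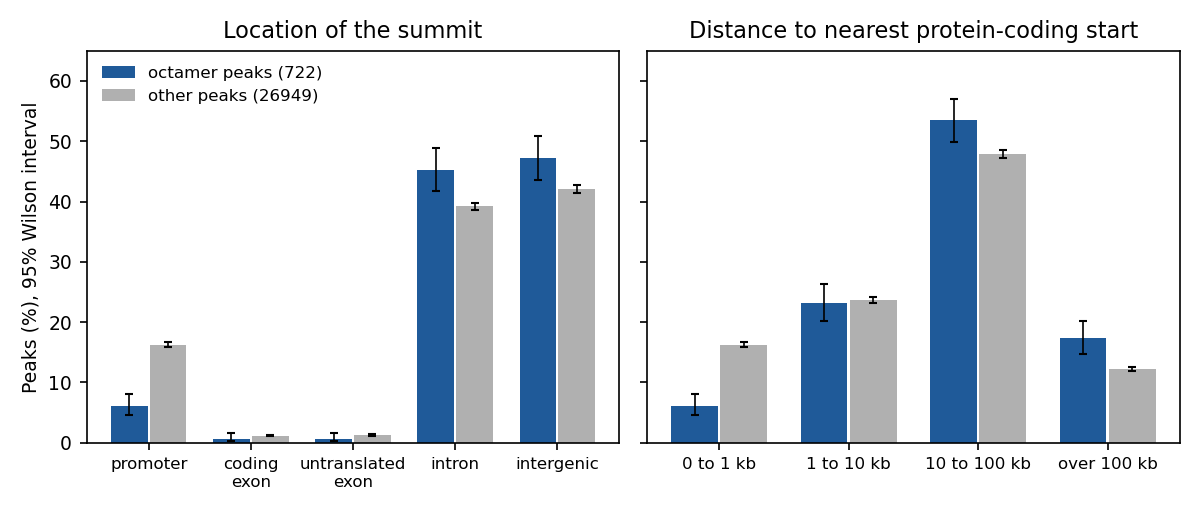
Percent of octamer peaks (blue, 722) and of other peaks (grey, 26949) by the place of the summit on mm9 (left) and by its distance from the nearest protein-coding start (right), with 95% Wilson intervals as error bars. The promoter bars stand at 6.09% and 16.3%, and octamer peaks have the higher share in the class over 100 kb.

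The signal of octamer peaks, the authors' value for each peak on an unstated scale, did not differ detectably from that of other peaks. It ran from 41.5 to 726 with a median of 73.9 (quartiles 53.4 and 120), and the other peaks had a median of 69.95 (quartiles 51.5 and 117) and a highest value of 1743. On the log2 scale the mean difference was 0.03 (95% interval -0.04 to 0.09, linear fit over all peaks, p of 0.429). It passed the threshold in ranks (2.18 percentile points higher, p of 0.0449) and with the octamer allowed within 100 bp (0.08, p of 0.00261). It was -0.06 among peaks above the median signal. With the list cut by signal into 10 equal groups, 2.46% of the strongest peaks and 1.81% of the weakest (1.37 to 2.37%) held an octamer, and the highest share was 3.32%, in the fourth group from the top. The strongest peaks of the list had no octamer: the best octamer peak was 130th of all.

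At promoters the octamer peaks had a median signal of 63.3 (highest 219) and the other peaks 60.1. Elsewhere the medians were 74.2 (highest 726) and 72.6. The log2 difference between octamer and other peaks differed by 0.03 between promoters and elsewhere (95% interval -0.24 to 0.31, interaction p of 0.809), so a difference by location was not detectable.

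The 12 strongest octamer peaks were all outside promoters, as were 678 of all 722 octamer peaks. The first lay in an intron of Tcerg1l (signal 726), and the second, with a signal of 663, in an intron of Ebf1, 147065 bp from the nearest start. Ebf1 encodes early B-cell factor, which sets up the B lineage. The Ebf1 peak also held an EICE, at which IRF4 binds with PU.1 or SPIB. Next came an intergenic peak nearest to 9530008L14Rik (620), an intron of 4931406P16Rik (584), an intergenic peak 4637 bp upstream of Siah2 (568), a gene for a ubiquitin ligase, and one nearest to Slc44a1 (559), which encodes a choline transporter. Intergenic peaks nearest to Ipo5 (554), an importin gene, and to Cd47 (553), which encodes the surface protein that restrains phagocytosis, followed. The peak in an intron of Zbtb32 (544), a zinc finger repressor gene, was 1416 bp upstream of the nearest start. It held an interferon-stimulated response element (ISRE), an AP-1 site and an AICE with a gap of 4 bases. The list ends with introns of Tspan5 (505), Dok6 (458, nearest start Cd226) and Mgat5 (436). Of these 12 peaks, 7 held none of the 16 other motifs searched: those at Tcerg1l, 9530008L14Rik, 4931406P16Rik, Slc44a1, Cd47, Tspan5 and Mgat5. The same was true of 362 of all 722 octamer peaks (50.1%), so the 12 are not shown to differ from the rest.

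Octamer peaks were spread over 641 nearest genes, 575 of which had 1. Ebf1 was nearest to 6, out of 45 peaks assigned to it (13.3%, against 2.61% over the whole list). Their signals were 42.5, 44.6, 46.7, 66.9, 166 and 663, so 1 peak stood far above the rest. Igkv1-115, a kappa V gene, also had 6, of 15 peaks. Gm11145 had 4 of 9, Nebl 4 of 14, Ptprj, a phosphatase gene, 3 of 13, Bcl11a, a lymphoid transcription factor gene, 3 of 15, and Bcl2, which opposes apoptosis, 3 of 21. These 7 genes, all those with 3 or more, were picked for their counts. Only protein-coding starts were used to name them. The octamer peaks of Igkv1-115 and Gm11145 all lay in the kappa locus, at least 58483 bp from the named gene. They are counted again with that locus below, several of them beside other V genes.

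Of the 44 promoter peaks, 37 had their summit upstream of the start (84.1%), as had 2749 of the 4384 other promoter peaks (62.7%). The octamer read forward along the gene in 25 and in reverse in 19. The strongest 12 were at Pik3r6 (219), Blnk (211), Ttc25 (210), Egln2 (165), Fgd3 (127), Spib (120), A630001G21Rik (118), Rel (105), Cd79b (98.5), Cdkl1 (97.1), Ankk1 (96.9) and Polm (92.5). The other 32 ran from 42.2 at Dhx40 to 90.2 at Ermn. Among them, picked after their values had been seen, were H3f3b (62.8), a histone H3.3 gene, and Csf2rb (49.3), the gene of a shared cytokine receptor chain. Of the 12, Blnk encodes the linker that carries the signal of the B-cell receptor, and Cd79b a signalling chain of that receptor. Spib encodes the ETS factor that can pair with IRF4, Rel an NF-kB subunit, and Polm a DNA polymerase of end joining. Pik3r6 encodes a regulatory subunit of a phosphoinositide kinase, Egln2 a prolyl hydroxylase, Fgd3 an exchange factor for small GTPases, and Cdkl1 and Ankk1 protein kinases.

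At Cd79b the summit was 101 bp upstream of the nearest start, and the octamer lay 76.5 bp upstream. The stretch printed above overlaps a coding exon of a Cd79b transcript that starts farther away. At Blnk the summit was 191 bp upstream of the nearest start. The printed Blnk stretch overlaps an untranslated exon of a longer transcript, and another octamer 19.5 bp upstream of that transcript's start was not under a summit. At Spib the summit was 599 bp downstream of the start, in an intron. At Pou2f1, the OCT1 gene, the promoter peak was weak (46.5) and lay 222 bp upstream. Spib and Pou2f1 each had another octamer peak in an intron, outside the promoter class, with signals of 88.2 and 65.9.

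Over all protein-coding genes, 46 of 22202 had an octamer summit within 1 kb of a start (0.207%). Among 4 genes for octamer factors and their coactivator, Pou2f1 was the only one. Among 21 textbook octamer and OBF1 targets it was Cd79b and Spib, among 21 genes of the B-cell receptor and coreceptors Cd79b and Blnk, and among 23 genes for B-cell transcription factors Spib. None of 10 class II antigen presentation genes, 15 T lineage genes and 15 hepatocyte genes had one. These lists were drawn up with earlier results known and overlap, and each count is of 0 to 2 genes. Summits of any kind lay within 1 kb of 4291 of the 22202 protein-coding genes (19.3%). They did so for 12 of the 21 receptor and coreceptor genes, 16 of the 23 transcription factor genes, 13 of the 21 textbook targets, 3 of the 4 octamer factor genes and 4 of the 10 class II genes, and for none of the T lineage or hepatocyte genes. These counts describe binding and not expression.

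Most octamers at gene starts were not in a summit window. Within 200 bp upstream of a start, 8 of 18 histone H2B genes and 7 of 18 H2A genes had an octamer, as had none of 29 H3, H4 and H1 genes and 444 of 22202 protein-coding genes (2.00%). The H2A and H2B genes stand partly in divergent pairs, and 5 octamers lay upstream of a gene of each kind, so there were 10 distinct ones. None of these 10 was in a summit window, which allows a share of up to 30%. A summit of any kind lay within 1 kb of 1 H2B and 1 H2A gene (5.56% each), against 19.3% of all protein-coding genes. Few histone genes were thus near any summit, with or without an octamer. Of the 444 genes, 17 had the octamer in a summit window (3.83%, 2.40 to 6.05%). In Vpreb3, a relative of the surrogate light chain genes, Mef2b and Lyn, the gene of a Src-family kinase, an octamer stood 41.5, 98.5 and 45.5 bp upstream without being in a summit window on mm9.

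The immunoglobulin loci held 14 octamer peaks. In the kappa locus, on chromosome 6, 11 of 42 summits had an octamer (26.2%), against 2.61% of the whole list. The heavy chain locus had 1 of 11, and the lambda locus 2 of 24. The heavy chain peak was the strongest of these (signal 309) and lay 44021 bp downstream of the start of Ighg2c, a constant region gene. The lambda peaks (101 and 92.9) lay 63197 and 56291 bp from the start of Iglc3, a constant region gene.

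Octamers upstream of V genes had a fixed orientation in the reference. Within 200 bp upstream, 60 of 100 kappa V genes, 20 of 37 heavy chain V genes and 3 of 3 lambda V genes had an octamer. It read ATTTGCAT along the gene in all 60 kappa and 3 lambda genes and ATGCAAAT in all 20 heavy chain genes. Its centre lay at a median of 99.5 bp from the start in kappa genes and 104 bp in heavy chain genes. Of the 60 kappa octamers, 7 were in a summit window (11.7%, 5.77 to 22.2%). Of the 20 heavy chain octamers none was, which allows a share of up to 15%, and no summit of any kind lay within 1 kb of the 37 heavy chain V genes. None of the 3 lambda octamers was in a summit window, although 2 of the 3 lambda V genes had a summit within 1 kb. Kappa V genes of the same family can share long stretches of sequence, so reads may be split among them. How uniquely reads map there was not measured.

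The 7 kappa peaks had summits 83 to 125 bp upstream of the V start and octamer centres 79.5 to 103.5 bp upstream. Their signals were 171 at Igkv2-112, 156 at Igkv11-125, 118 at Igkv14-111, 60.02 at Igkv14-130, 52.2 at Igkv19-93, 47.8 at Igkv2-109 and 47.1 at Igkv14-126. An eighth octamer peak, 284 bp upstream of Igkv10-95, had a signal of 106. Another 9 summits, all without an octamer, lay 491 to 648 bp downstream of V starts, with signals from 42.2 to 209.

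The 2 kinds of summit met at 5 genes. Signals upstream and downstream were 156 and 138 at Igkv11-125, 118 and 171 at Igkv14-111, 47.1 and 56.7 at Igkv14-126, 60.02 and 62.8 at Igkv14-130, and 52.2 and 209 at Igkv19-93. The downstream peak was thus the higher one at 4 of the 5 genes.

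**Figure D3:**
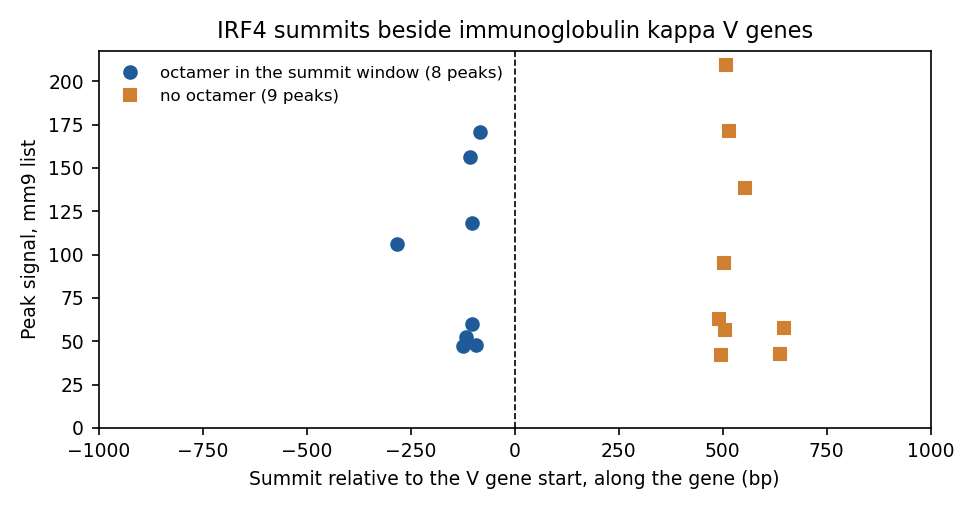
Signal of each mm9 peak whose summit lies within 1 kb of a kappa V gene start, against the position of the summit along the gene. The 8 peaks with an octamer (blue circles) all lie upstream and the 9 without one (orange squares) all lie 491 to 648 bp downstream.

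None of the other motifs passed the test as more frequent beside an octamer than in other peaks. For each of 16, sites in either orientation in the same window that did not overlap the octamer were set against the octamer in a logistic fit over all peaks, and 15 had enough peaks to be fitted. Of these, 2 passed an adjusted p of 0.05 (13.3%), both less frequent in octamer peaks, and none was more frequent. The EICE (GGAA, 2 bases, GAAA) was in 40 octamer peaks (5.54%) and in 8.76% of the others, with an odds ratio of 0.611 (0.443 to 0.843, adjusted p of 0.00939). The call held with GC content as a term (0.556, adjusted p of 0.00152) and among peaks above the median signal (0.527, adjusted p of 0.00734). It also held in windows of 25 bp (0.359, adjusted p of 0.0056) and 100 bp (0.596, adjusted p of 7.19e-05). None of these alternatives masked bases in the other peaks. The octamer itself takes up 8 bases of the window: with 8 bases masked at the same places in the other peaks, the odds ratio was 0.767 and the adjusted p 0.466, so the call was lost. The SP/KLF site GGGCGGGG, typical of GC-rich promoters, was in 3 octamer peaks (0.416%) and in 1.87% of the others (odds ratio 0.219, adjusted p of 0.00854). That call was lost with GC content as a term (0.418, adjusted p of 0.155).

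The other IRF sites gave odds ratios under 1 that did not pass. The ISRE (GAAA, 2 bases, GAAA) was in 4.29% and 5.83% (odds ratio 0.725, adjusted p of 0.243), and the AICE with GAAA directly before TGANTCA in 4 octamer peaks, 0.554% against 1.14% (adjusted p of 0.254). The AICE with TTTC, 4 bases and TGANTCA was in 1.11% and 1.12%, and AP-1 (TGANTCA, which is also part of both AICEs) in 14.1% and 16.1% (adjusted p of 0.322). The NF-kB motif was in 3.88% and 5.75% (odds ratio 0.662, adjusted p of 0.119). It passed with windows of 25 bp (0.298, adjusted p of 0.0392) and 100 bp (0.708, adjusted p of 0.00887) and among peaks above the median signal (0.480, adjusted p of 0.0318). It did not pass with GC content as a term (0.682, adjusted p of 0.138) or with 8 bases masked in the other peaks too (0.808, adjusted p of 0.652). In the 100 bp window AP-1 (0.810, adjusted p of 0.0214) and CTCF (0.239, adjusted p of 0.00126) also passed as less frequent in octamer peaks. With the masking, the odds ratios of ISRE, AP-1 and the AICE with a gap were 0.889, 1.02 and 1.27, and none of them passed (adjusted p of 0.652, 0.981 and 0.652).

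PU.1 (GAGGAAGT) was in 3.60% and 4.96%, EBF1 (TCCC, 2 bases, GGGA) in 0.970% and 1.15%, and RUNX (TGTGGTT) in 6.65% and 5.76%. NFY (CCAAT) was in 8.31% and 9.17%. The core promoter site TATAAA was in 1.66% and 2.36%. The E-box CAGCTG was at 8.73% and 8.72%, and MEF2 at 0.693% and 0.434%. The heptamer CTCATGA, which stands beside the octamer in heavy chain promoters, was in 1.39% and 1.25%. CTCF (CCACN followed by AGGNGGC) was in 2 octamer peaks and 1.12% of the others and was not fitted. Adjusted p-values of the 8 fitted motifs in this paragraph ran from 0.243 for PU.1 to 0.993 for the E-box.

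**Figure D4:**
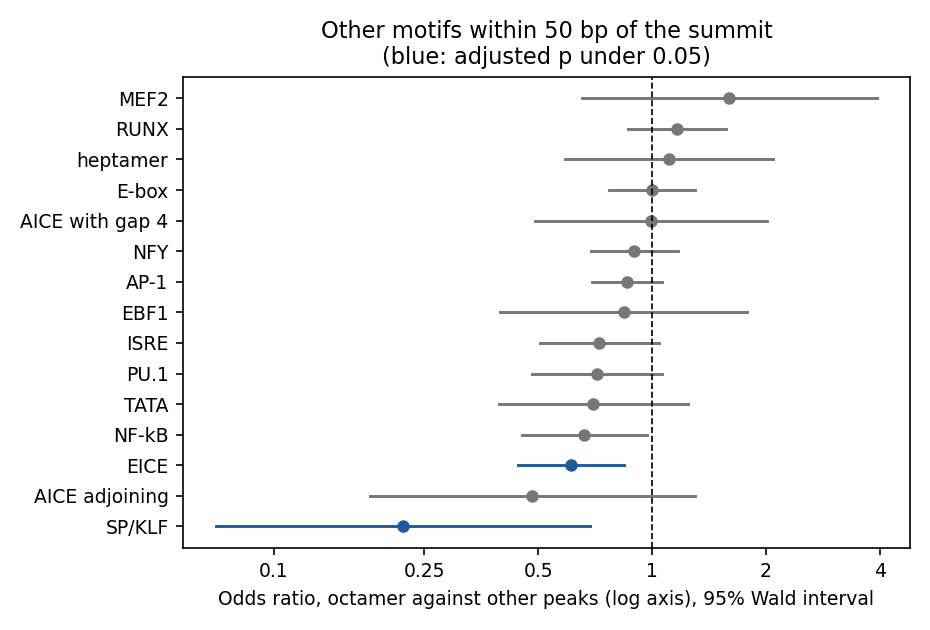
Odds ratio for each of 15 motifs in octamer peaks against other peaks (points) with 95% Wald intervals (lines) on a log axis. The 2 motifs in blue, EICE at 0.611 and SP/KLF at 0.219, had an adjusted p under 0.05, and the intervals of 12 of the others cross 1, while that of NF-kB ends just under it.

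At least 1 IRF element (EICE, ISRE or either AICE) stood in 80 octamer peaks (11.1%, 8.99 to 13.6%) and in 16.2% of the others. With 8 bases masked in the others too, their share was 13.2% (12.8 to 13.6%), and the intervals overlapped. Octamer peaks with an IRF element had a median signal of 107, and those without one 72.7. None of the 16 motifs was found in 362 octamer peaks (50.1%, 46.5 to 53.8%), against 44.4% of the others and 50.5% with that masking. These 362 peaks had a median signal of 70.3, against 77.4 for octamer peaks with at least 1 motif. Neither difference in median signal was tested or set beside the same split of the other peaks, so neither is shown to be particular to octamer peaks. No match says only that these letters are not in the window.

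Each replicate had its own list only on mm10, so promoter peaks were set beside it by gene name and by the signed distance of the summit from the start. Of the 44 promoter genes 35 had a start there, and 19 of them had a summit of the optimal list within 100 bp of the same place. Pik3r6, Ttc25 and Cd79b were among those without a start, so they have no replicate values. Blnk was among the unmatched, although its RefSeq promoter held an octamer near an optimal summit, as described below. The 19 are thus not a count of all promoter peaks present on mm10. The optimal list holds 44058 peaks that passed the authors' reproducibility threshold. The 8 kappa V genes were added after the data had been seen, and 7 of them matched. Signals of replicates 1 and 2 were 40.2 and 46.8 at Spib, 27.3 and 60.7 at Rel, and 32.6 and 80.7 at Egln2. They were 46.3 and 58.6 at Fgd3, and 6.56 and 22.97 at Pou2f1. Among kappa V genes they were 38.1 and 45.5 at Igkv2-112, 29.0 and 39.9 at Igkv11-125, and 15.6 and 44.8 at Igkv14-111.

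A signal in both replicates was found for 22 of the 26 matched genes, and replicate 2 was higher in 20. The median log2 ratio of replicate 2 to replicate 1 was 0.48 (SD 0.63 over genes, range -0.39 to 1.81). Over the 37635 optimal peaks with both signals it was 0.53 (SD 0.66). The higher values of replicate 2 were thus common to the whole list, and the scale of each list is unknown.

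**Figure D5:**
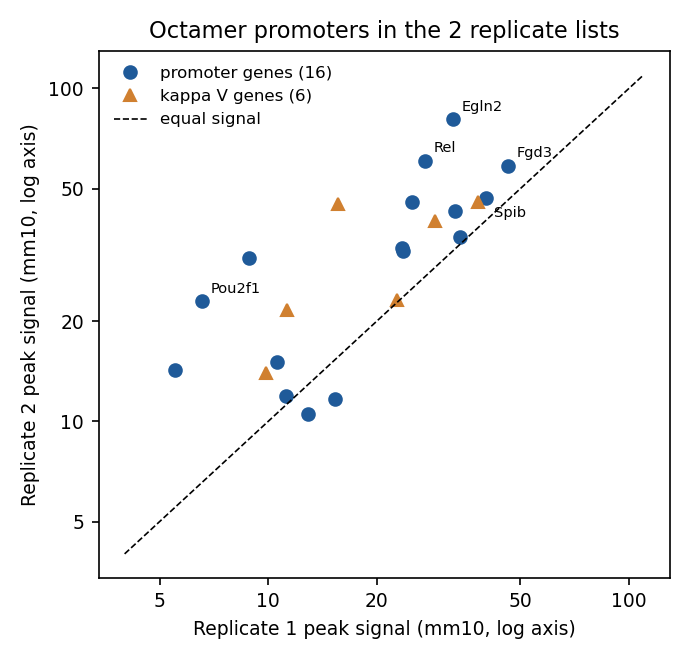
Signal in replicate 1 and replicate 2 (mm10 lists, log axes) at the 16 promoter genes and 6 kappa V genes with a matched summit in both. The dashed line marks equal signal, and 20 of the 22 genes lie above it.

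RefSeq promoters on mm10 (250 bases before to 50 after the start, build GRCm38.p6) gave a count that starts from the octamer instead of the peak. An octamer was in 570 of 32851 promoters (1.74%). A summit of the optimal list lay in 76 of them (13.3%, 10.8 to 16.4%) and in 14.6% (14.2 to 14.98%) of the promoters without an octamer. Of 561 distinct promoter octamers, 31 (5.53%) were within 50 bp of an optimal summit. Blnk was second among these, with signals of 64.0 and 79.0 in the replicates, and its octamer lay 126.5 bp upstream of the RefSeq start. Vpreb3 was among them too, with 15.01 and 22.2. Vpreb3 was named after its values had been seen.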

How the data were processed

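The deposited peak lists hold, for each peak, a signal value given by the authors' caller, a narrowPeak column whose scale is not stated. Signal was compared within 1 list, and between replicates only at matched summits. Per the deposited descriptions, alignments of both replicates to mm9 gave the mm9 list, and the mm10 optimal list came from the lists of each replicate and of both pooled. Aligner, peak caller and read numbers are not named in the labels or files used, depth is unknown, and Wilson or Wald intervals give the precision. The labels name a possible control experiment, which was not used here.

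Summits were the peak start plus the offset. Octamers and motifs were sought in the mm9 reference (NCBIM37), with starts and exons from GENCODE vM1. No coordinate was converted between builds. Promoter share and motifs were tested by logistic fits, log2 signal by linear fits, and 1-base variants by exact McNemar tests, with Benjamini-Hochberg adjustment and a threshold of 0.05. A motif was fitted where at least 3 peaks of each kind held it, so 15 of 16 were adjusted together. GC content was taken 50 to 250 bp from the summit. The fits were tested on simulated data. Alternatives were other windows, promoter distances, covariates and flanks, peaks above the median signal, the conservative list, and each replicate left out.

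Genes named were the nearest of the 12 strongest octamer peaks, the nearest of the 12 strongest at promoters, and members of 10 lists with an octamer summit within 1 kb (immunoglobulin genes: in their loci), at most 6 a list. Other genes were named after their values had been seen. The members and lists were chosen with earlier results of these data known. Python 3.11.15 was used with numpy 2.4.6, pandas 2.3.3, scipy 1.17.1, statsmodels 0.14.6 and matplotlib 3.10.9.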

Additional observations from a re-analysis of the deposited data

How the results depend on the processing

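With octamers allowed within 25 or 100 bp, octamer peaks numbered 362 and 1163, and the median distance from the summit was 10.5 and 36.5 bp. The signal difference, 0.03 with p of 0.429, passed the threshold in the 100 bp window (0.082) and in ranks (2.18 percentile points). Motifs past the threshold numbered 5 with 100 bp windows and 1 each with GC content as a term and with 8 bases masked in every peak, the last an alternative chosen after seeing the data. Without replicate 1 or replicate 2, 17 and 18 promoter genes matched on mm10, and 14 matched with the conservative list. The promoter odds ratio passed under all 7 alternatives and ran from 0.283 to 0.571. The call of A7C was lost with the left flank and in the 100 bp window (ratio 1.24). No direction of a called result reversed. No paired analysis was possible because there is 1 group. Unknown depth and 1 joint mm9 list limit all values.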
